A study of Mus musculus with 4 samples.

Results

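Of the 124962 broad H3K79me2 peaks called in control thymocytes, 804 (0.643%) had a q, the false discovery rate the peak caller gives, of at most 0.05. These 804 regions, called strong control domains here, were chosen by that q-value, so their q and fold enrichment are described and not tested. They are few but wide: together they covered 11.1 Mb, 4.72% of the length of the control list.

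Dimethylation of lysine 79 of histone H3 (H3K79me2) is laid down by the methyltransferase DOT1L, which travels with elongating RNA polymerase II, and the mark is densest just downstream of the start of transcribed genes. DN3 thymocytes are T cell precursors that have entered the T lineage under Notch and IL-7 signals and are rearranging their T cell receptor genes. The factors Bcl11b, Tcf7 and Gata3 secure that fate.

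The mark was mapped by chromatin immunoprecipitation and sequencing (ChIP-seq) in double negative thymocytes of the DN3 stage, grown in culture from C57BL/6 haematopoietic stem cells. As feeder layer served OP9-DL1 stroma, which presents a Notch ligand, and the αMEM medium held the cytokines Flt-3L (5 ng/mL) and IL-7 (2 ng/mL). Control cells received the vehicle DMSO, and inhibitor cells A939572, which blocks SCD1, a desaturase that turns stearic into oleic acid. Each condition had 1 ChIP library made with an Active Motif antibody and 1 input, and the inputs are not analysed here. With 1 library per condition, values have no replicate error and no p-value is given. The peak lists do not give the reads behind them, so the depth is unknown. A peak is a mean over all cells of a culture, and the share of cells that carry the mark and its level per cell cannot be told apart. Intervals are 95% Wilson intervals over peaks or genes and cover counting error only.

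The start of a coding gene, the 5′-most that the annotation gives, lay inside a strong control domain for 256 of 17492 genes with an annotated start (1.46%). For some genes that start lies inside the gene body, which bears on every count below that uses it. The 250 bases before the start of 5 of the 256 genes are shown because they range from CpG-rich to CpG-free, with each CpG in capitals. In these 5 genes the start is the 5′ end of the gene. Sequences are from RefSeq, build GRCm38.p6, and these genes were chosen after their values had been seen. Srsf3 encodes a splicing factor, and Notch1 the receptor for the Notch ligands of the stroma. Runx1 encodes a T lineage transcription factor, whose distal start is shown. Il2ra encodes CD25, the surface marker of the DN2 and DN3 stages, and Lcp2 the adaptor SLP-76 of T cell receptor signalling.
Srsf3, chr17:29032410-29032659, plus strand: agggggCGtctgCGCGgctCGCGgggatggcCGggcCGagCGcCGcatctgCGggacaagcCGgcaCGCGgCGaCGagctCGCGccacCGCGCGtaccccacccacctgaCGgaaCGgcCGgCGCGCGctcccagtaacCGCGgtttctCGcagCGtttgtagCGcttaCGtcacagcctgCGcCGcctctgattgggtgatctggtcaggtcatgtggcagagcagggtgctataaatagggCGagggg
Notch1, chr2:26503823-26504072, minus strand: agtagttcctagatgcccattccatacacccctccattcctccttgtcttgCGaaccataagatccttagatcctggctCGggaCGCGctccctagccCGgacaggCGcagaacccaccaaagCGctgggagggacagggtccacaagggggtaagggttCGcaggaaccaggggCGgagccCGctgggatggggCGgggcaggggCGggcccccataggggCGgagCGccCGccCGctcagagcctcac
Runx1, chr16:92826075-92826324, minus strand: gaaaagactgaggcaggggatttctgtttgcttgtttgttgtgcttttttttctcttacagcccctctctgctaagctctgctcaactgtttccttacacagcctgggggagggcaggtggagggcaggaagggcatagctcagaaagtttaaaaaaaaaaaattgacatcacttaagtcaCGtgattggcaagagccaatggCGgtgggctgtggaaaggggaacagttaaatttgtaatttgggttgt
Il2ra, chr2:11642542-11642791, plus strand: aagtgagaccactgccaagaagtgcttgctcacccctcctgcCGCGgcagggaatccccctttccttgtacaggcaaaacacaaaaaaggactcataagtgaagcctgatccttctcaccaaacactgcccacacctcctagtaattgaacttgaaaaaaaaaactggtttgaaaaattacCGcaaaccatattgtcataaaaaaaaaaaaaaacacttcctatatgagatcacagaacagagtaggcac
Lcp2, chr11:34046678-34046927, plus strand: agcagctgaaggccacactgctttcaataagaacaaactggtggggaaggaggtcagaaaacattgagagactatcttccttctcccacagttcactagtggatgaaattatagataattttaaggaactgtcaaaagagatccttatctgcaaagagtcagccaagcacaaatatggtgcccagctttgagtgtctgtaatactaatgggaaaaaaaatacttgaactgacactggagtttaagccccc

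The Srsf3 stretch held 35 CpG dinucleotides, an observed to expected ratio of 1.16, and the Notch1 stretch held 16 (0.588). The Il2ra stretch held 3 (0.284), the Runx1 stretch 2 (0.165), and the Lcp2 stretch none. Over the 300 bases of the RefSeq promoter entry, which adds the 50 bases after the start, the GC box GGGCGG was found on either strand at Notch1 and not at the other 4 genes. The E-box CACGTG and the letters TGTGGT, a core of the RUNX motif, were found at Runx1, and TATAAA at Srsf3. A match is only a run of letters.

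Strong control domains also held 28 of 1005 annotated miRNA hairpins (2.79%), in 19 domains. The mature miRNAs shown are those that share a seed across hairpins in these domains and are known in lymphocytes, with miR-142a-3p, an abundant miRNA of blood cells. The seed, bases 2 to 8, is in capitals. The let-7 miRNAs shared the seed GAGGUAG, the miR-15 and miR-16 family AGCAGCA, miR-17 and miR-20a AAAGUGC, and miR-19a and miR-19b GUGCAAA.
mmu-let-7a-5p: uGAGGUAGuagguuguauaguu
mmu-let-7d-5p: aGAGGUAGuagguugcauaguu
mmu-let-7f-5p: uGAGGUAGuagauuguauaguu
mmu-let-7g-5p: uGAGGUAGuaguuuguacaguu
mmu-miR-15a-5p: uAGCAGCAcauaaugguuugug
mmu-miR-15b-5p: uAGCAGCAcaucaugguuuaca
mmu-miR-16-5p: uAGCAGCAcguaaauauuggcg
mmu-miR-17-5p: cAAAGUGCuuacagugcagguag
mmu-miR-20a-5p: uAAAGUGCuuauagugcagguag
mmu-miR-19a-3p: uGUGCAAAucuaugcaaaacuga
mmu-miR-19b-3p: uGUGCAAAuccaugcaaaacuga
mmu-miR-142a-3p: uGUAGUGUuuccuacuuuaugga

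The let-7d, let-7f-1 and let-7a-1 hairpins lay in a domain of 12.3 kb on chromosome 13 that touched no coding gene (chr13:48535495-48547745). Its fold was 3.18, and the inhibitor peak over it was 15.1 kb wide with a fold of 6.06. The hairpin of let-7g lay in the Wdr82 domain (9.75 kb, fold 2.72). Family members with the seed AGCAGCA came from 2 domains, that of the lncRNA Dleu2 (miR-15a and miR-16-1, 21.1 kb, fold 2.84) and that of Smc4 (miR-15b and miR-16-2, 39.2 kb, fold 4.45). All 6 hairpins of the miR-17 to miR-92 cluster, which restrains cell death in lymphocyte precursors, lay in a domain of 6.02 kb with a fold of 2.20. The inhibitor peak there was 9.64 kb wide with a fold of 4.11. The hairpin of miR-142 lay in a domain of 2.78 kb with a fold of 4.45, next to an inhibitor value of 27.0 kb and 3.86. That of miR-21a lay in the domain at Vmp1 (4.95 kb, fold 3.74). Inhibitor peaks of any q touched 25.5% of the 1228 annotated miRNA genes. A further 42 of the 1005 hairpins lay outside the strong domains but inside an inhibitor peak that covered such a domain. Among them were miR-181a-1 and miR-181b-1, known for tuning T cell receptor sensitivity in thymocytes. They lay 33.3 and 33.5 kb from the domain of the lncRNA Gm4258, within its inhibitor peak of 81.9 kb. The miR-106b, miR-93 and miR-25 hairpins, inside Mcm7, lay 3.27 to 3.69 kb from the Mcm7 domain, inside its inhibitor peak.

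The genes under the domains were set against markers of thymocytes and of other cells that the culture could hold. A gene counted as held where at least 1 base of its body lay under a strong domain, which was the case for 3.92% of all coding genes. Of 12 markers of DN3 thymocytes, 6 were held by a strong control domain: Bcl11b, Tcf7, Gata3, Notch1, Cd3g and Il2ra. Cd3e, Ptcra, Rag1, Rag2, Dtx1 and Hes1 were not held. None of 10 B cell markers, 10 myeloid markers, 12 stem and progenitor markers or 12 genes silent in blood was held. Thy1 was held among 12 markers of OP9 stroma, but thymocytes express it too. Tfrc, the transferrin receptor of dividing cells, was held among 10 erythroid and megakaryocyte markers. Gzma, a granzyme, was held among 10 markers of natural killer and innate lymphoid cells. Its domain of 5.13 kb, with a fold of 3.33, also lay over Cdc20b. Inhibitor peaks of any q, a looser threshold, touched all 12 DN3 markers, 6 B cell, 5 myeloid and 6 stem and progenitor markers. They touched 3 OP9, 4 erythroid and megakaryocyte and 5 natural killer and innate lymphoid markers. Of the genes silent in blood they touched 0, against 51.4% of all coding genes.

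Strong domains had a median width of 8.38 kb and ranged from 0.612 to 159 kb, and the middle 50% lay between 3.87 and 16.7 kb. The other 124158 control peaks had a median width of 1.28 kb. At least 10 kb was reached by 346 strong domains, at least 50 kb by 34 and at least 100 kb by 6. Fold, the authors' enrichment of a peak over its background, had a median of 2.53 (1.33 to 7.13) in the strong domains. It never passed 2.61 in the other control peaks, whereas 195 strong domains reached a fold of 3 and 16 a fold of 5. Width and fold ranked domains in part differently (Spearman's rho 0.250 over 804 domains of the same library, as a description).

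The domain with the highest fold that held a gene lay at Mbnl1, which encodes a splicing regulator. It spanned 24.5 kb (chr3:60465743-60490251, mm10) with a fold of 6.88, and the inhibitor peak over it was 24.5 kb wide with a fold of 7.42. The next fold, 6.61, was that of a domain inside Srgap3. The T cell receptor gamma locus had 6.60 over Trgj2 and Trgc2 and 6.58 over Trgc4 and the neighbouring Stard3nl, an endosomal membrane protein. Srsf3 followed with a fold of 6.05 and the highest −log10 q of a domain in a coding gene, 51.8. Arl4c, a small GTPase, had 5.74, Tra2b, a splicing factor, 5.50, Cnbp, a nucleic acid binding protein, 5.36 and Tfrc 5.22. The widest domains were mostly others: only Mbnl1 was among the 10 highest by fold and, through its other domain, among the 10 widest.

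The widest strong domain touched no coding gene. It spanned 159 kb over the lncRNA 2610307P16Rik (chr13:28727691-28886219), and the nearest coding gene, Sox4, a transcription factor of lymphoid precursors, lay 62.7 kb away. The inhibitor peak over it was 273 kb wide, and the folds were 2.36 and 5.66. Next came Nck2, an adaptor of actin signalling (134 kb), Ankrd11, a chromatin cofactor (126 kb), and Cdk6, the kinase of G1 progression in lymphocytes (124 kb). Tcf12, which encodes the E protein HEB that acts at receptor rearrangement, had 118 kb, and Mbnl1 104 kb in its other domain. Fut8 (a fucosyltransferase, 95.3 kb), Pde3b (a phosphodiesterase, 94.7 kb), Bcl11b (88.6 kb) and Cux1 (a homeobox factor, 81.6 kb) completed the 10 widest. Their inhibitor peaks were 99.0 kb wide at Bcl11b, 138 kb at Nck2, 171 kb at Ankrd11, 209 kb at Cdk6 and 239 kb at Cux1.

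Around the threshold, the ranges of width and fold of the peaks just inside and just outside overlapped. Atp13a3, Peli1, Rbbp6, Septin7 and Dek lay just inside, with −log10 q of 1.3013 to 1.3069, widths of 5.89 to 47.5 kb and folds of 2.03 to 2.30. Atad2, Dusp5, Top2b, Baz2b with Marchf7, and Csk lay just outside, with −log10 q of 1.2977 to 1.3006, widths of 5.51 to 22.6 kb and folds of 2.13 to 2.35. All 10 were overlapped by an inhibitor peak with q of at most 0.05.

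An inhibitor peak overlapped 793 of the 804 strong domains by at least 1 bp, 98.6% (97.6 to 99.2), against 21.3% of all control peaks. For inhibitor peaks past the same threshold, q of at most 0.05, the numbers were 792 and 98.5% (97.4 to 99.1), against 12.6% of all control peaks. Wide peaks meet another list more easily, so the 1711 other control peaks at least as wide as the median strong domain were taken as well. Of these, 77.4% (75.4 to 79.4) were overlapped by any inhibitor peak and 67.4% (65.2 to 69.6) by one past the threshold. The share rose with −log10 q below the threshold, from 19.3% under 0.1 and 45.9% from 0.1 to 0.5 to 82.2% from 0.5 to 1 and 97.1% from 1 to the threshold. Above it, shares were 99.6% up to 2, 98.5% up to 5, 99.3% up to 10 and 94.9% (87.7 to 98.0) beyond. The strong domains that were not overlapped, also those in the last bin, were all under 2 kb wide. Inhibitor peaks covered 99.5% of the total length of the strong domains, against 27.6% of that of the other control peaks. Wholly inside inhibitor peaks lay 746 strong domains, a count not made for the other control peaks.

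**Figure D1:**
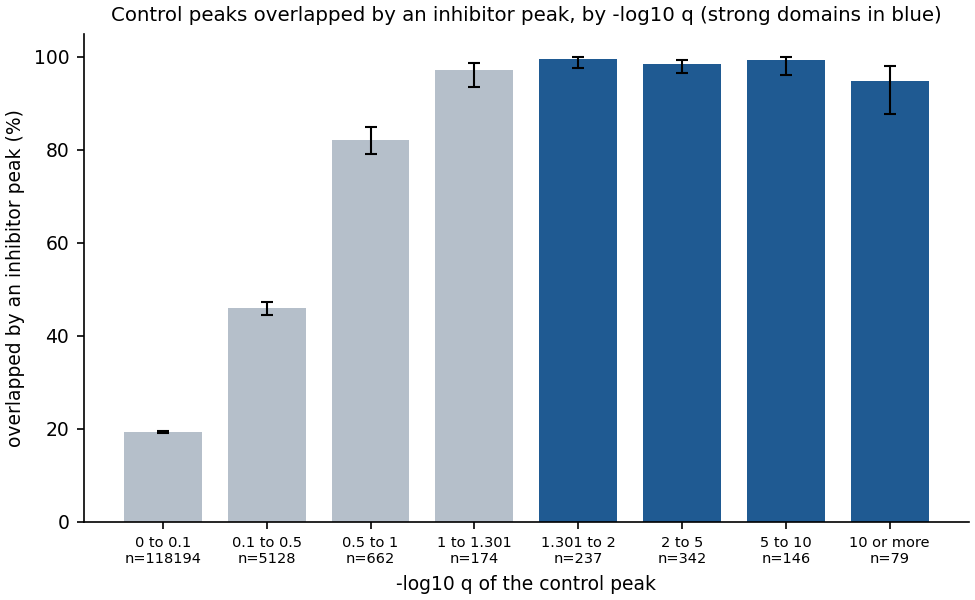
Share of control peaks overlapped by at least 1 bp of an inhibitor peak (%), by the −log10 q of the control peak. Bars are shares, error bars 95% Wilson intervals and n the peaks in each bin. Blue bars are the strong domains, which stand at 94.9 to 99.6%, and the grey bars rise from 19.3 to 97.1%.

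The 793 overlapped domains lay under 775 inhibitor peaks, 773 of them past the threshold, which is 11.8% of the 6528 inhibitor peaks past it. Within the inhibitor list, these 775 peaks had a median width of 30.4 kb and a median fold of 3.91. The other 5755 inhibitor peaks past the threshold had 12.7 kb and 2.72. The inhibitor peaks over strong control domains thus had the higher medians of width and fold. A wide inhibitor peak meets a strong domain more easily, and these groups were not matched for width. Ranks agreed more closely for width (rho 0.688 over 793 domains) than for fold (rho 0.337), as descriptions over domains of 1 library each.

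Side by side, the inhibitor peak was the wider of the pair in 784 of 793 domains, and the median ratio of widths was 3.26. The ratio was at least 2 in 634 domains and at least 5 in 230. By control width, its median was 6.21 for domains up to 4.03 kb and 3.82 for those up to 8.52 kb. It was 2.91 for those up to 17.1 kb and 2.24 for the widest. Control width is also the divisor of the ratio, so part of this fall is built in. The inhibitor peaks themselves had median widths of 14.1, 23.7, 33.8 and 67.6 kb in these groups. Peaks were called in each library on its own, and the part of depth or background in these widths was not tested. The inhibitor peaks over strong domains spanned 32.6 Mb, of which strong domains covered 33.8% and control peaks of any q 51.1%. In the other inhibitor peaks past the threshold, control peaks of any q covered 34.8%. The 51.1% includes the strong domains by which its inhibitor peaks were chosen, so these 2 shares cannot be compared. Besides the strong domains, the inhibitor peaks over them held 1955 weaker control peaks, and 224 of these inhibitor peaks held none.

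**Figure D2:**
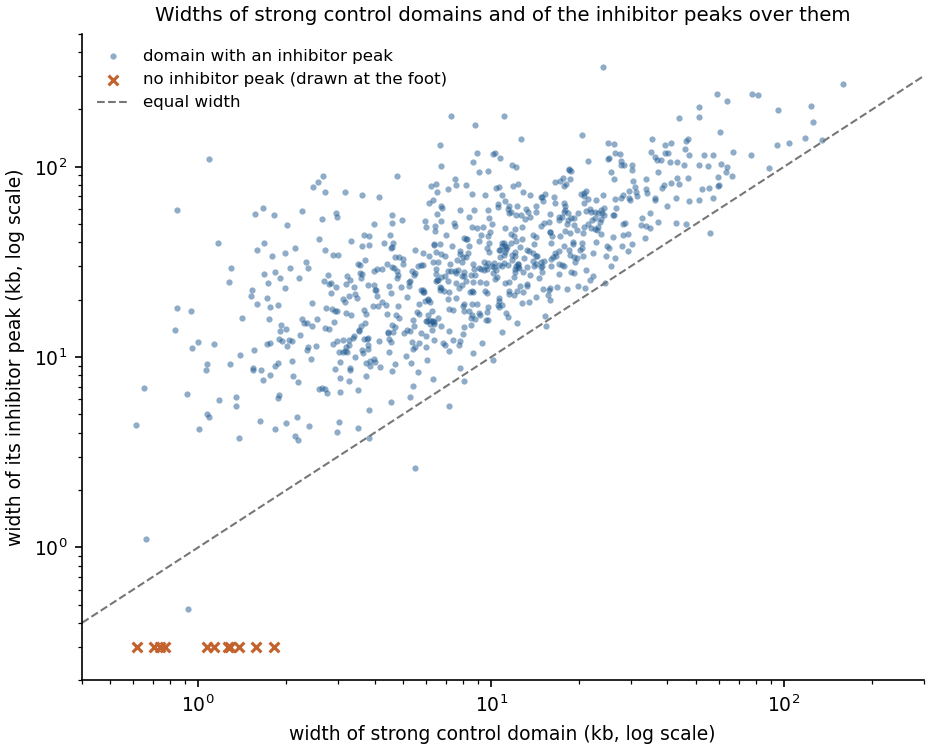
Width of each strong control domain against the width of the inhibitor peak that shares most bases with it (kb, both axes logarithmic). Points are the 793 overlapped domains, crosses at the foot the 11 domains with no inhibitor peak, and the dashed line marks equal width. Of the points, 784 lie above the line.

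In 9 domains the control peak was the wider. At Sgk1, which encodes a kinase downstream of growth factor signals, it spanned 5.49 kb against 2.62 kb, with folds of 1.90 and 2.28. At Rgs1, a regulator of G protein signalling, the widths were 7.18 and 5.54 kb with folds of 2.30 and 3.33. At Myc, the growth regulator, they were 8.08 and 7.51 kb with folds of 2.02 and 4.10. The domain over the first gamma receptor cluster had 55.8 kb against 45.0 kb, and a further inhibitor peak covered another part of it. A domain of 0.926 kb on chromosome 9 (chr9:3023624-3024549) had the lowest fold of all, 1.33, with the highest −log10 q, 106. Its inhibitor peak had the same fold and a −log10 q of 73.1. The 4 remaining domains, at Gpr65, Klf6, Rnf157 and Mbnl1, were wider by less than 1 kb.

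Single inhibitor peaks joined strong domains in 19 places, 3 domains in 1 of them and 2 in each of the other 18. The 3 lay at Rpl24, a ribosomal protein, Pcnp and Trmt10c, a mitochondrial tRNA methyltransferase, under an inhibitor peak of 73.9 kb. The widest joining peak spanned 186 kb over both domains of Arpp21, an RNA binding protein of immature thymocytes. Those at Skp1 and Tcf7 and at Smc4 and Trim59 each spanned 118 kb, and that at Raly and Eif2s2 spanned 102 kb. Gaps between joined domains ran from 1.57 to 53.0 kb.

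Strong domains with no inhibitor peak numbered 11, and every one of them was under 2 kb wide (0.620 to 1.81 kb). They were 11 of the 78 strong domains under that width, so all 726 wider domains were overlapped. The highest fold of the whole control list, 7.13, was among them: a region of 1.26 kb on chromosome 3 (chr3:50272559-50273823) with no annotated gene, 91.1 kb from Slc7a11. The other high values were 6.61 over 0.743 kb inside Srgap3, which encodes a GTPase activator best known in neurons, and 4.91 and 4.17 in regions without a gene nearest to 1700009N14Rik and Ttc6. Lmbrd1, Slc22a23 and the pseudogene Vmn2r-ps17 held another 3, with folds of 2.19, 2.31 and 3.07. The last 4 touched no gene, on chromosome 12, on chromosome 9 at 3017103, on chromosome Y and on the unplaced scaffold JH584304.1, with folds of 1.95 to 2.50. A single domain, of 0.612 kb over the pseudogene Gm21811, met only an inhibitor peak below the threshold (−log10 q 0.998).

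Most strong domains sat on genes. Of the 804, 769 touched a coding gene, 684 of them 1 gene, 78 of them 2 and 7 of them 3. Coding gene bodies made up 91.3% of their length, against 51.4% for the other control peaks and 85.0% for the inhibitor peaks over the strong domains. In all, 858 of 21887 coding genes (3.92%) were held, and 292 had at least 50% of the body under them. The held genes were longer than coding genes in general (medians of 24.2 and 17.2 kb). Mbnl1, Arpp21 and 4933434E20Rik held 2 strong domains each. Those of Mbnl1 together covered 77.2% of its 157 kb.

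Strong domains tended to begin at gene starts and to end inside the gene. Of the 256 starts in strong domains, 252 were also in an inhibitor peak past the threshold. Among all 17492 annotated starts, a further 4144 lay in such an inhibitor peak but in no strong domain. Any annotated start of a coding gene lay in 33.3% (30.2 to 36.7) of strong domains, in 10.2% (8.83 to 11.7) of the 1711 wide other control peaks and in 0.926% of all other control peaks. In 556 domains that touched 1 coding gene with an annotated start, the upstream edge lay at a median of 0.177 kb downstream of the nearest start (middle 50%: −0.756 to 0.462 kb). In 58.3% (54.1 to 62.3) it lay within the 1 kb downstream of the start, and in 34.9% (31.0 to 38.9) upstream of it. For the 426 genes with 1 annotated start, 62.0% began within that 1 kb. The downstream edge lay a median of 8.79 kb beyond the start.

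The edges of the inhibitor peaks differed at both ends. Over 553 of these domains, the inhibitor peak began a median of 2.49 kb upstream of the start and ended 27.8 kb downstream of it. It reached past the start in 93.5% (91.1 to 95.3), against 35.1% (31.2 to 39.1) for the strong domain. Among 359 starts that the strong domain did not reach, the inhibitor peak reached 327. The inhibitor peak passed the upstream edge of the domain by a median of 2.51 kb and the downstream edge by 15.6 kb, and the downstream gap was the larger in 462 of 553. The strong domain ended before the end of the gene in 519 of 553 and the inhibitor peak in 218.

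**Figure D3:**
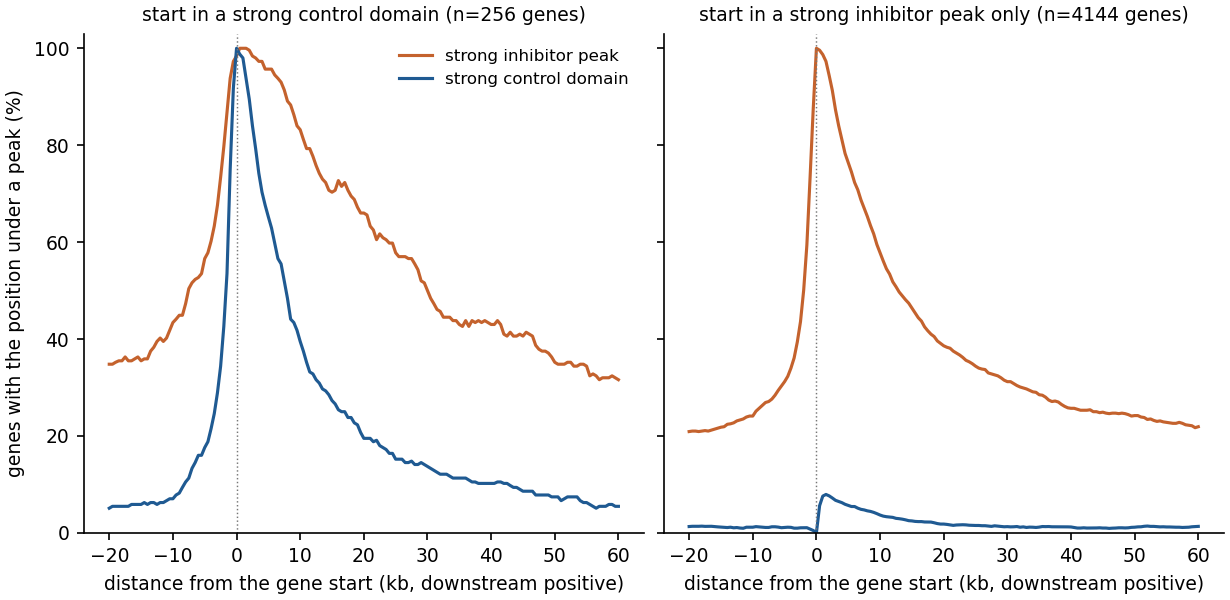
Share of genes (%) with a given distance from the 5′-most annotated start (kb, downstream positive) under a strong control domain (blue) or an inhibitor peak with q of at most 0.05 (orange). The left panel holds the 256 genes whose start lay in a strong domain, and the right panel the 4144 genes whose start lay only in an inhibitor peak past the threshold. The value at 0 follows from that choice; at 10 kb downstream the left panel stands at 39.5% and 83.2%.

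Away from the start, which the choice of genes fixes, the 256 genes differed in reach. At 10 kb downstream, 39.5% of them lay under a strong domain and 83.2% under an inhibitor peak past the threshold, and at 20 kb 19.5% and 66.0%. At 10 kb upstream the values were 7.03% and 43.4%. In the 4144 genes whose start lay only in an inhibitor peak past the threshold, the inhibitor share was 57.8% at 10 kb downstream and 24.1% at 10 kb upstream.

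The promoters under strong domains were rich in CpG. Their median observed to expected CpG ratio was 0.845, against 0.829 for the 4144 starts in inhibitor peaks past the threshold but in no strong domain. It was 0.390 for the 12384 starts in neither a strong domain nor an inhibitor peak, some of which lay in weaker control peaks, and 0.577 for all 17492. A ratio of at least 0.6 was found in 192 of the 256, in 3399 of the 4144 and in 8466 of all 17492. By this count, promoters under strong domains were CpG-rich more often than all promoters. They were CpG-rich less often than those of the 4144, although their median was slightly higher. The ETS core CCGGAAG was found in 14.5% of promoters under strong domains, in 25.9% of those 4144 and in 11.9% of all. For TATAAA the shares were 12.1%, 5.36% and 13.3%, and for GGGCGG 59.8%, 66.8% and 46.3%. Motifs were searched on both strands of the 300 bases. Where the 5′-most start given lies inside the gene body, these bases are internal to the gene. GGGCGG holds a CpG itself. Median gene lengths of the first 2 groups were 22.1 and 21.3 kb.

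Genes were then grouped by role, in lists that were drawn up with earlier results of these data known. Their counts are read beside the 3.92% of all coding genes. The lists hold genes that blood cells express, so they are not a sample of all genes.

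Of 30 T-lineage regulators, 11 were held by a strong domain. The domains covered 92.8% of Bcl11b, the commitment factor, 70.5% of Gata3 and 67.6% of Tcf7, which encodes TCF1. Gata3 had the highest fold of the group, 4.36 over 21.8 kb, and its inhibitor peak, at 25.4 kb, was little wider and had a fold of 5.16. At Tcf7 the widths were 26.4 and 118 kb, with folds of 3.39 and 3.85, and the inhibitor peak also spanned the neighbouring Skp1. At Notch1 they were 20.4 and 146 kb, with folds of 3.09 and 3.41. Fli1, an ETS factor, was covered over 54.6% by a domain of 66.2 kb, Ikzf1, which encodes Ikaros, over 71.1% by 63.8 kb, and Tcf12 over 43.4%. At Runx1 the domain of 63.9 kb (fold 2.17) covered the distal start and 28.4% of the body, whereas the inhibitor peak spanned 222 kb (fold 4.20). Myb, Satb1 and Ets1 were the remaining 3. Of the 20 regulators with an annotated start, 8 had it inside the domain.

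Of 24 genes of T cell receptor signalling, 7 were held. Ptprc, which encodes the phosphatase CD45, had a domain of 57.3 kb with a fold of 3.29 and an inhibitor peak of 68.5 kb with a fold of 6.34. Rasgrp1, an activator of Ras, had 42.8 and 50.7 kb, and Grap2, an adaptor, 20.8 and 72.8 kb. Cd3d and Cd3g, neighbours that code for receptor chains, shared a domain of 12.7 kb (fold 2.22) and an inhibitor peak of 19.3 kb (3.76). At Lcp2 the domain was 8.62 kb wide with a fold of 2.70, and the inhibitor peak 48.2 kb with 3.62. Lck, the kinase next to the receptor, had a domain of 3.51 kb over 13.9% of its body. Of 14 genes of V(D)J recombination and end joining, Xrcc6, which encodes Ku70, and Hmgb1 were the only ones held. Xrcc6 was covered over 23.3% and Hmgb1 over 83.8%.

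Cytokine receptor and STAT genes were held in 6 of 16 cases. The Il2ra domain spanned 36.7 kb with a fold of 3.41, next to an inhibitor peak of 108 kb with 4.87. At Il7r, the receptor for the IL-7 in the medium, the values were 17.8 kb (2.36) and 30.2 kb (3.79). Stat5b and Stat3, transcription factors of cytokine signals, had 40.2 and 17.2 kb in the control list and 118 and 43.4 kb in the inhibitor list. Il2rg, the shared receptor chain, had 2.53 kb and 11.5 kb, and Socs1, a brake on this signal, was also held. Among 20 survival and cell cycle genes, 7 were held: Cdk6 (124 kb), Bcl2, which protects from cell death (51.3 kb, inhibitor peak 182 kb), Mcl1, Rb1, Cdkn1b, Pcna and Myc.

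All 24 genes of the RNA processing list were held, and 14 had at least 50% of their body under strong domains. These genes are among the most expressed in most cells. Hnrnpu was covered over 100% by 19.8 kb (fold 2.80), Hnrnpm over 45.7% by 17.9 kb, Hnrnpc over 56.9% by 17.4 kb and Hnrnpf over 60.1% by 15.2 kb. Their inhibitor peaks spanned 23.7 to 46.0 kb. By symbol, a grouping chosen after the values had been seen, 19 of 21 Hnrnp genes and 7 of 11 Srsf genes were held, against 9 of 37 Ddx helicase genes. Inhibitor peaks of any q touched 20 of the 21, 10 of the 11 and 34 of the 37, against 51.4% of all coding genes. Strong domains pass a threshold that these inhibitor peaks need not pass, so the counts do not compare the conditions.

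Of 20 translation genes, 12 were held, in domains of 1.01 to 5.61 kb. Eif4a2, a helicase of translation initiation, had 5.61 kb (fold 2.77) and an inhibitor peak of 8.31 kb (4.26), and Eif4a1 had 4.67 and 29.3 kb. Pabpc1, the poly(A) binding protein, had 3.80 kb, Rps3 4.17 kb and Rack1 3.18 kb. By symbol, 22 of 81 ribosomal protein genes and 11 of 56 initiation factor genes were held. Mitochondrial ribosomal protein genes were held in 3 of 78 cases (3.85%) and zinc finger genes named Zfp in 13 of 397 (3.27%). Both shares were near the 3.92% of all coding genes. The Ndufa, Ndufb and Ndufs genes of respiratory complex I were held in 0 of 35 cases and olfactory receptor genes in 0 of 1110. Inhibitor peaks of any q touched 77 of the 78 mitochondrial ribosomal genes and 32 of the 35 complex I genes. They touched 17 of the 1110 olfactory receptor genes, beside the same 51.4% of all coding genes. No count of control peaks of any q is given for these genes, so the counts do not compare the conditions.

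Among 21 genes of H3K79 methylation and elongation, 4 were held. Kmt2a, the MLL1 methyltransferase, was covered over 38.1% by a domain of 29.8 kb, and Aff4 and Ccnt1, parts of the elongation machinery, over 25.1% and 21.3%. Inhibitor peaks of any q, a looser threshold than that of the strong domains, touched all 21, against 51.4% of all coding genes. Of 23 chromatin regulators, 8 were held, led by Arid1a, a subunit of the BAF remodeller, with 61.0 kb over 78.5% of the body. Ezh2, the methyltransferase of H3K27, had 21.5 kb, Ncor1 18.0 kb, Smarca4 17.1 kb and Kdm6a 17.2 kb.

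Actin and adhesion genes were held in 9 of 20 cases, among them Myh9, a myosin heavy chain (33.9 kb), Lcp1, an actin bundling protein (23.1 kb), Actb, Tmsb4x, Pfn1, Actg1, Cfl1 and Tmsb10. Of 20 calcium and NFAT genes, Nfatc3, a calcium-responsive factor, and Calm2, a calmodulin gene, were held, with 17.7 and 9.10 kb. Of 20 genes of fatty acid and sterol synthesis, 5 were held. Scd2, which encodes a desaturase of the same family as the drug target SCD1, had a domain of 10.9 kb over 77.3% of its body with a fold of 3.62, and an inhibitor peak of 38.4 kb with a fold of 3.83. Hmgcs1, an early enzyme of sterol synthesis, had 10.6 kb, and Sqle and Fasn under 2 kb each. Of 20 MHC and immune regulator genes, 5 were held: B2m, Klf6, Ctla4, Tnfaip3 and Irf1. B2m, which encodes the light chain of MHC class I, was covered over 100% by a domain of 8.66 kb that also lay over Patl2.

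**Figure D4:**
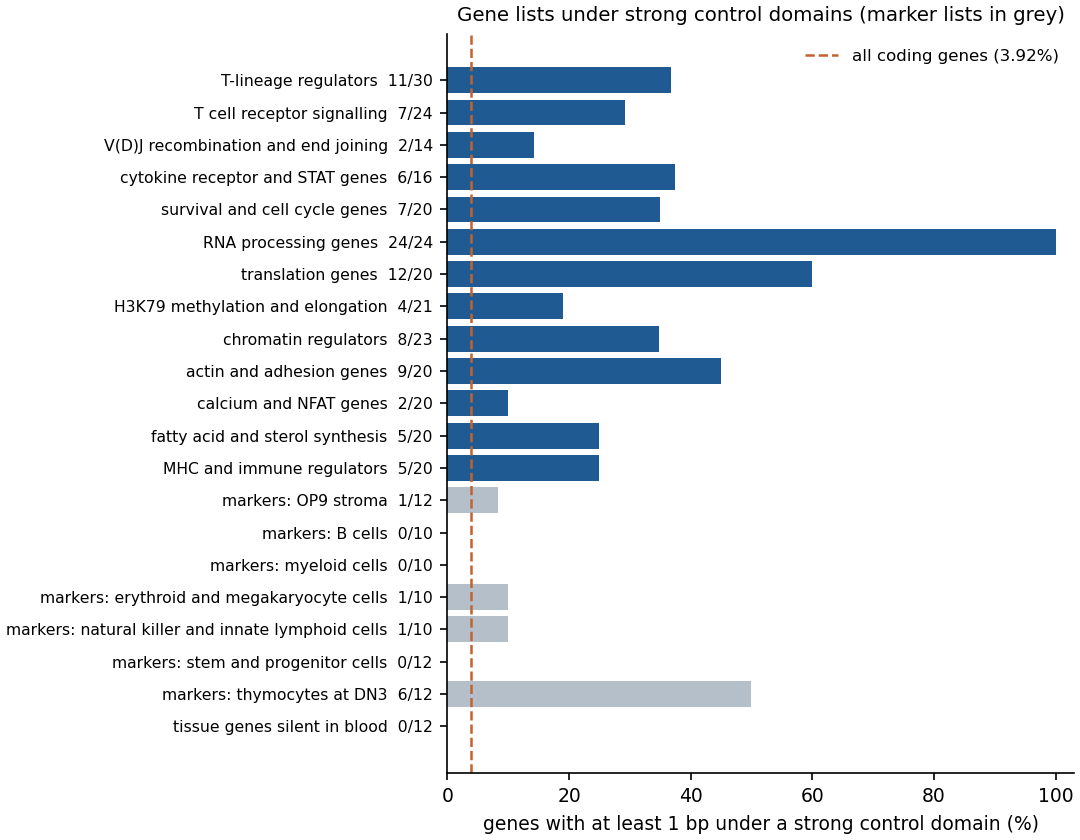
Share of the genes of each list with at least 1 base under a strong control domain (%), with counts beside the names. Marker lists are in grey, and the dashed line is the 3.92% of all coding genes. The RNA processing list stands at 24 of 24, and the B cell, myeloid, stem and silent tissue lists stand at 0.

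Of the 35 strong domains that touched no coding gene, 7 lay in T cell receptor loci. Another, over the last gamma cluster, reached into Stard3nl. In the gamma locus on chromosome 13, 4 domains held all 4 J and all 4 C segments and 6 of 7 V segments. They spanned 55.8, 17.7, 20.7 and 28.2 kb with folds of 2.86, 2.66, 6.60 and 6.58. Inhibitor peaks over them had folds of 3.76 to 5.66 and widths of 43.8 to 64.7 kb. In the beta locus on chromosome 6, a domain of 28.1 kb (fold 4.65) held both D, all 14 J and both C segments with Trbv31. A further domain of 8.66 kb (fold 3.96) held Trbv12-2 and Trbv13-2. Thus 3 of 35 beta V segments lay under strong domains and 30 of 35 under inhibitor peaks past the same threshold. For peaks of any q the counts were 16 and 32, and 1 of these inhibitor peaks spanned 106 kb.

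In the delta locus on chromosome 14, 2 strong domains of 10.1 and 8.59 kb held Trdd2, both J segments and the C segment, with folds of 4.47 and 2.30. The alpha locus surrounds it, and none of its 130 V and 60 J segments nor its C segment lay under a strong domain. Inhibitor peaks past the threshold touched 5 of the 130 and 4 of the 60, and those of any q touched no others. Control peaks of any q touched more, 18 of the 130 and 13 of the 60. No peak of either list touched the C segment. No segment of the immunoglobulin heavy, kappa or lambda loci lay under a strong domain. Control peaks of any q touched 53 of 183 heavy chain V segments, and inhibitor peaks of any q touched 2. Rearrangement removes and joins segments in these loci, and the reads were placed on the germline build, so coverage here is that of the segments left in the cells.

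**Figure D5:**
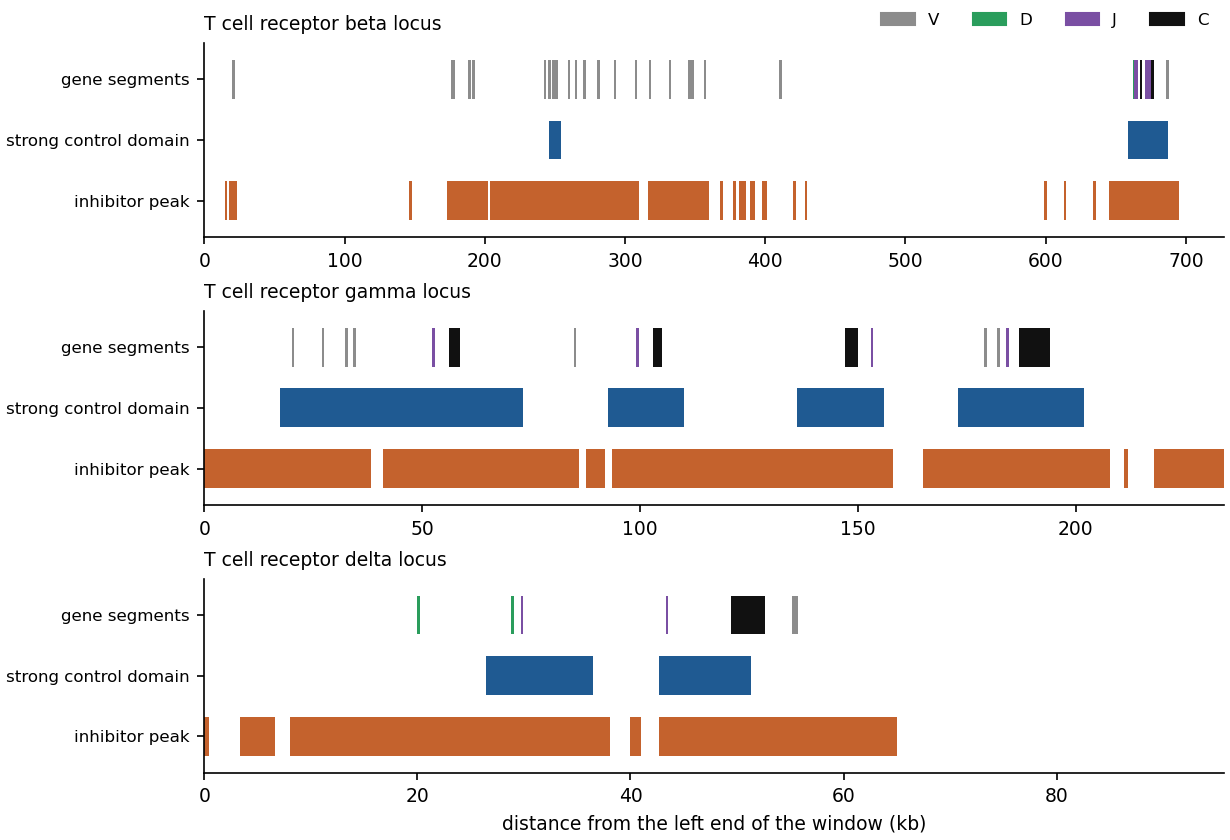
Strong control domains (blue) and inhibitor peaks of any q (orange) along the T cell receptor beta, gamma and delta loci, with V, D, J and C segments that are not pseudogenes. The axis is the distance from the left end of each window (kb). Domains cover the D, J and C end of the beta locus. They touch each of the 4 gamma clusters, and J and C of the delta locus.

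Other wide domains without a coding gene lay over the lncRNA Gm4258 (41.0 kb, fold 3.16, inhibitor peak 81.9 kb, 4.98), 130 kb from Ptprc, and over Gm34596 (24.0 kb, fold 2.13), 10.8 kb from Aff3. The inhibitor peak over Gm34596 was the widest over any strong domain, 333 kb. Malat1, a nuclear lncRNA of splicing speckles, had 6.09 kb with a fold of 4.75, and its neighbour Neat1 2.80 kb with 2.91. By kind of gene, strong domains held 67 of 1340 snoRNA genes (5.00%), 120 of 12727 lncRNA genes (0.943%), 26 of 9944 pseudogenes (0.261%) and none of 408 tRNA genes. The snoRNA genes lay in 40 domains, among them those of the host RNAs Snhg5, Snhg15 and Zfas1. A snoRNA in an intron shares the domain of its host gene.

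Strong domains were found on every chromosome from 1 to 19 and on X and Y. Chromosome 11 held 107, or 6.65 per 100 coding genes, the highest of all, and X held 22 (2.28) and Y held 2 (0.781). For inhibitor peaks past the threshold, the values per 100 coding genes were 34.6 on chromosome 11, 17.6 on X and 1.95 on Y. The sex of the donor animals is not given in the sources used here.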

How the data were processed

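The 2 ChIP libraries are deposited as 2 lists of broad peaks. Per the submitters' processing notes, BWA, MACS2 2.1.0 and mm10 were used. The sources used here do not give their roles, the caller's options or the use of the inputs. In the deposited lists each peak has the authors' fold (a ratio to background), −log10 p and −log10 q, and a score that equals the whole part of 10 times −log10 q in every peak. The lowest deposited −log10 p in the control list was 1.00, so weak peaks were kept. Values per peak served for ranking and filtering inside their own list, and nothing was normalised between lists.

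Strong domains are the control peaks with q of at most 0.05 in the deposited −log10 q. Overlaps of at least 1 bp with inhibitor peaks, RefSeq gene bodies (GRCm38.p6, the assembly of mm10; 21887 coding genes), annotated starts (79.9% of coding genes have an entry) and miRNAs were computed in Python 3.11.15 with numpy 2.4.6, pandas 2.3.3 and scipy 1.17.1. Figures were drawn with matplotlib 3.10.9. Where inhibitor peaks overlapped a domain, the one sharing most bases stood for it. No strand is in the gene table, so it came from the promoter table. For some genes the 5′-most start in the promoter table lies inside the gene body. The overlap functions were tested on simulated peaks.

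Genes were named by rule: those under the 10 domains highest in fold and the 10 widest, every domain with no or only a weak inhibitor peak, the 5 widest without a coding gene, the 5 inhibitor peaks over most domains (ties by width), the 5 domains that most exceed their inhibitor peak, up to 5 genes per list, and 5 peaks on either side of the threshold. Genes named beyond the rule were chosen after their values were seen. Some genes that the rule takes are not reported here. All 360 entries of the lists were found in the gene table. The domains, lists and rules were chosen with earlier results of these data known. With 1 library per condition no test between conditions was run.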

Additional observations from a re-analysis of the deposited data

How the results depend on the processing

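Of 58 alternatives over 11 results, 43 stayed within the counting interval of the reported value or, for counts, within 1.5 times of it. With −log10 q of at least 5, 225 domains remained, their median width was 10.3 kb, 87.7% of their length lay in coding gene bodies, and they held 238 coding genes, 82 gene starts and 41 of the list genes (102 with all domains). Of these domains 4 were wider than their inhibitor peak. With inhibitor peaks of fold at least 3 only, the overlapped share was 89.9% and the covered length 96.9%. All genes of the gene table, coding or not, held 96.4% of the length. Where at least 50% of the gene body had to be covered, 292 coding genes and 52 list genes were held. Domains at least 2 kb wide, an alternative chosen after seeing the data, were all overlapped (100% by any inhibitor peak and 100% by those past the threshold), with a median width of 9.57 kb. Merging domains within 1 kb joined none of the 804 domains, so it could change none of the 11 results. These 11 alternatives count among the 43. With any annotated start, also added after seeing the data, 300 genes had a start in a domain, against 256. The cause of these differences was not tested, apart from the fewer peaks or genes each alternative admits. No paired analysis was possible because each condition has 1 library. Depth is unknown, so a missing peak does not show that the mark is absent, and 3841 coding genes overlap another, so a domain there cannot be given to 1 of them; without those genes, 667 coding genes were held.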
